A study of Mus musculus with 4 samples.

Results

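The set described here is the S9.6 signal regions of control P19 cells that were called again after knockdown of Ube2t. P19 is a mouse embryonal carcinoma cell line. CUT&Tag with S9.6 was made in cells given the shUbe2t #1 adenovirus, in cells given the shUbe2t #2 adenovirus and in cells given the control adenovirus (shCtrl), with 1 library each, and a further shCtrl library was made with no primary antibody. All cells had therefore received an adenovirus, the control cells are labelled wild type, and the libraries were amplified for 11 PCR cycles. The labels give no time after infection, no measure of the remaining Ube2t and no replicate. The distinct intervals of the 3 S9.6 peak lists were merged where they touched or overlapped, and a region was retained when it held an shCtrl interval and an interval of at least 1 hairpin and overlapped no interval of the no-antibody library. This gave 404 retained regions of 2773 merged regions in all. Of the 404, 210 held all 3 S9.6 libraries, 82 held shCtrl and shUbe2t #1, and 112 held shCtrl and shUbe2t #2, so that 194 missed one hairpin. The calls chose the members, and counts of members and ratios between the libraries that were required to carry a call are given as descriptions.

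S9.6 is a monoclonal antibody against RNA:DNA hybrids, which form the core of R-loops, where nascent RNA pairs with its template strand and the other DNA strand is left single. In CUT&Tag a transposase is tethered to the antibody and cuts the DNA beside it, so that tagged fragments mark the bound sites. R-loops are known to form at CpG-rich, actively transcribed promoters, at some gene ends and at transcribed small RNA genes, and helicases, RNase H enzymes and proteins of the Fanconi anaemia pathway limit them. UBE2T is the E2 ubiquitin-conjugating enzyme that works with the FANCL ligase to ubiquitinate FANCD2 and FANCI in that pathway. The antibody is also known to bind other RNA duplexes weakly, and an RNase H-treated library was not analysed here, so a region is called an S9.6 region and not an R-loop.

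The sequences around gene starts are shown first, because 180 of 378 retained regions (47.6%, 42.5% to 52.8%) came within 1000 bp of a tabled start. Shown are 7 RefSeq promoter windows (GRCm38.p6, the build also called mm10), each from 250 bases before to 50 bases after a start, for the gene-end members of all 3 libraries with the highest mean fold rank whose own gene has a tabled start within 1000 bp of the region. The windows are Ap2a1 at chr7:44929441-44929740 on the minus strand, Hexdc at chr11:121204183-121204482 on the plus strand, Ankrd50 at chr3:38484801-38485100 on the minus strand, Sugct at chr13:17694716-17695015 on the minus strand, Vcl at chr14:20929148-20929447 on the plus strand, Tsga10 at chr1:37865033-37865332 on the minus strand and Rab1a at chr11:20201162-20201461 on the plus strand. Each is printed 5′ to 3′ on the strand of its gene. Capitals mark the GC box (GGGCGG, or CCGCCC on the other strand) and the CCAAT box (CCAAT, or ATTGG on the other strand), and neighbouring matches can share bases or touch.
Ap2a1: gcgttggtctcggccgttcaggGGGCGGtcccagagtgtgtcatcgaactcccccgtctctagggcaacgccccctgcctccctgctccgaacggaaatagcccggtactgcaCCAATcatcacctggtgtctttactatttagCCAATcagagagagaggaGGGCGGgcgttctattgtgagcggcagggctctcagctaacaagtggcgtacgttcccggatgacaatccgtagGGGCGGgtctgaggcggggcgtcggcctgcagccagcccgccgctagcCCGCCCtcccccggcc
Hexdc: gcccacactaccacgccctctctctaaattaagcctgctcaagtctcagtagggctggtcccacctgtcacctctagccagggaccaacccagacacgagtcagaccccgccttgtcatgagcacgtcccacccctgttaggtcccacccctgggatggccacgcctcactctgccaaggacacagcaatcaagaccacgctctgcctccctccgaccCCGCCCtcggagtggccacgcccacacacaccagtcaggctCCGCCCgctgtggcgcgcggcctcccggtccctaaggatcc
Ankrd50: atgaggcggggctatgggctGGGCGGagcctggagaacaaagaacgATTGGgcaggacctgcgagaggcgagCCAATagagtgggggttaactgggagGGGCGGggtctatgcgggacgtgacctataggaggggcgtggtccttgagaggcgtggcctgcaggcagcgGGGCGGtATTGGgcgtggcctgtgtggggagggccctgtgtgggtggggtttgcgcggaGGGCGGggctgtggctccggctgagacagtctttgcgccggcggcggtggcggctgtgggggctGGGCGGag
Sugct: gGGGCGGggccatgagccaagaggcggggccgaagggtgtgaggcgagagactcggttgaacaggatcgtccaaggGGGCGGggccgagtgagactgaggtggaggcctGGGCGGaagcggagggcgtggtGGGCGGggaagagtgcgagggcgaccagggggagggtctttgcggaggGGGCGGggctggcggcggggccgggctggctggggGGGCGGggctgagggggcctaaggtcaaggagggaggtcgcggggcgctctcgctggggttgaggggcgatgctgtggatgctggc
Vcl: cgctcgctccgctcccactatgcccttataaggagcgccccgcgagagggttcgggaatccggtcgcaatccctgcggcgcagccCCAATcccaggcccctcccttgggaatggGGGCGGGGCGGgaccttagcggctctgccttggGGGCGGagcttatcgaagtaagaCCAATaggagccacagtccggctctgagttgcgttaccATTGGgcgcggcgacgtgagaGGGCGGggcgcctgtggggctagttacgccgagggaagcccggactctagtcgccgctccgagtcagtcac
Tsga10: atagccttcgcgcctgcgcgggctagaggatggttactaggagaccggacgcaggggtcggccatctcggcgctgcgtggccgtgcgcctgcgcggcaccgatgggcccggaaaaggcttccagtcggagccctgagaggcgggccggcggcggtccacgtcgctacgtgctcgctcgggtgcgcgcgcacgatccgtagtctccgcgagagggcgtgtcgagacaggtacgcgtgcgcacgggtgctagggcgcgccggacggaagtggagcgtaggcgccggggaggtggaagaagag
Rab1a: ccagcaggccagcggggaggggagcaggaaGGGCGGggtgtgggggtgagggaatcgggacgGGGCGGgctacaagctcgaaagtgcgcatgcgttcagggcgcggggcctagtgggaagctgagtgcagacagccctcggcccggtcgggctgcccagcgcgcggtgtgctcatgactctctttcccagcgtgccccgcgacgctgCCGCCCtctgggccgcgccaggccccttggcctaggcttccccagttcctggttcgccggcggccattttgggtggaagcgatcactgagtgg

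In 6 of the 7 windows at least 2 GC boxes were found, with 6 in Sugct, 5 in Ankrd50, 4 in Ap2a1, 4 in Vcl, 3 in Rab1a and 2 in Hexdc. Tsga10 held none of the motifs searched, although its window had the most CpG dinucleotides, 46, against 30 in Vcl, 27 in Rab1a, 25 in Ap2a1, 25 in Sugct, 23 in Ankrd50 and 16 in Hexdc. CCAAT boxes were present in Ankrd50 (3), Vcl (3) and Ap2a1 (2). Over all 32851 windows of the table, 35.7% held a GC box and 37.4% a CCAAT box. A match of letters is a description of the window and was not tested as a site of binding.

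By their lowest background the 3 S9.6 libraries were close in depth and the no-antibody library was shallower. The lowest local background that the authors' values imply was 1.21 fragments in shUbe2t #1, 1.23 in shUbe2t #2, 1.31 in shCtrl and 0.772 without antibody, which puts the libraries at 92.2%, 93.6%, 100% and 58.7% of shCtrl. They held 1519, 1640, 1263 and 516 distinct intervals, and the total number of fragments is unknown. Summit pileup, the number of fragments over the highest base of a peak, was recovered as a whole number for 100% of summits within 0.01 of the deposited −log10 p. Pileups compared between libraries were divided by these depths, and the authors' fold over local background was used only to rank peaks within a list. The Ube2t locus itself carried no interval, the nearest lying 226327 bp away in shUbe2t #1, 226317 bp in shUbe2t #2, 226295 bp in shCtrl and 256122 bp without antibody. The peak lists therefore do not check the knockdown. No test between conditions was made with 1 library per condition. Intervals printed cover counting error over regions only, and regions of one library are not replicates of a condition.

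Of the 1260 regions with an shCtrl interval, 840 were free of no-antibody intervals, and the 404 retained ones made up 48.1% of these (95% exact binomial interval 44.7% to 51.5%). The exclusion mattered for the size of the set. Before it, 806 regions held shCtrl and a hairpin, and 402 of them were left out for overlapping a no-antibody interval, 366 of which held all 3 S9.6 libraries. The retained regions covered 170966 bp. Of them, 390 lay on chromosomes 1 to 19, X and Y and 14 on unplaced sequence. Those of all 3 libraries had a median length of 446.5 bp (200 to 1119 bp), those of shCtrl and shUbe2t #1 362.5 bp and those of shCtrl and shUbe2t #2 317.5 bp. Only 3 members held more than 1 interval of any single library.

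Most retained regions of all 3 libraries lay at gene ends, meaning that the region came within 1000 bp of the first or last base of a tabled gene. These were 125 of 203 placed regions (61.6%, 54.5% to 68.3%), with a further 45 in gene bodies (22.2%) and 33 between genes (16.3%). With only intervals of a −log10 q of at least 5 the gene-end share was 42.9% (31.6% to 54.6%), no longer the larger part. Regions missing one hairpin were at gene ends in 100 of 187 (53.5%, 46.1% to 60.8%), in 39 of 78 of those with shUbe2t #1 (38.5% to 61.5%) and in 61 of 109 of those with shUbe2t #2 (56.0%, 46.1% to 65.5%). The intervals of these shares overlapped one another. Location was not used in choosing the members, so it can be set beside the other no-antibody-free regions. The share at gene ends was 57.7% in all retained regions (225 of 390, 52.6% to 62.6%), against 79.8% in regions of both hairpins without shCtrl (178 of 223, 73.9% to 84.9%) and 36.8% in regions of shCtrl alone (156 of 424, 32.2% to 41.6%). The retained regions lay between these classes, with no overlap of the intervals on either side. Regions called in shUbe2t #1 alone (62.7%, 58.6% to 66.6%) and in shUbe2t #2 alone (64.4%, 60.7% to 68.1%) had shares whose intervals overlap that of the retained regions. Among regions of all 3 libraries left out for a no-antibody interval the share was 17.4% (57 of 328, 13.4% to 21.9%), and among the no-antibody intervals themselves it was 14.8% (70 of 472).

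**Figure D1:**
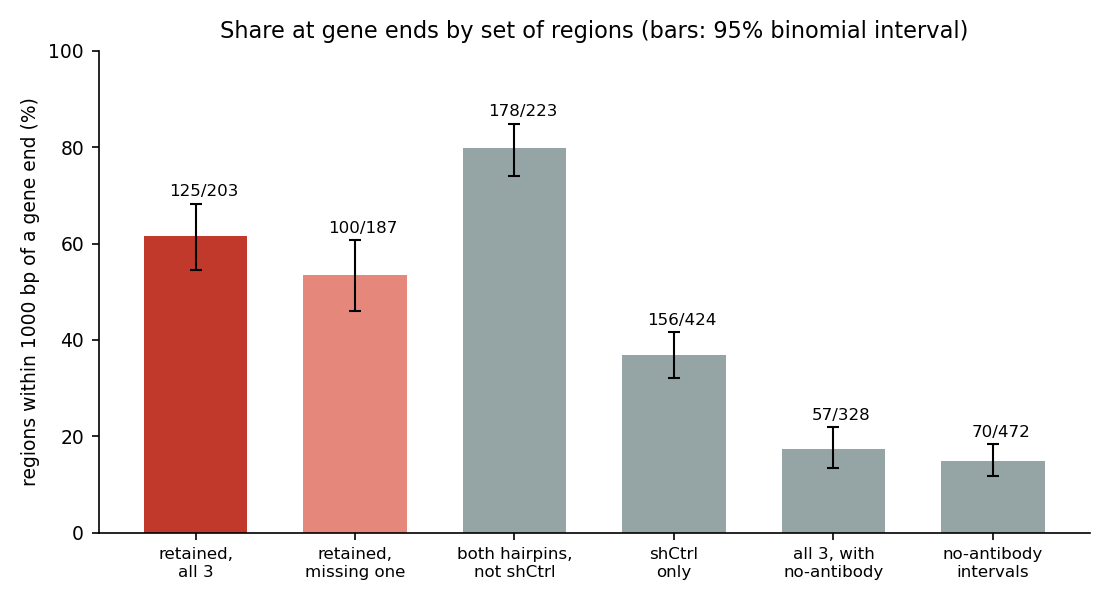
Percent of placed regions within 1000 bp of a gene end, for retained regions of all 3 S9.6 libraries and those missing one hairpin (red), and for 4 other sets (grey). Bars are shares with exact 95% binomial intervals, and the counts stand above them. The retained sets, at 61.6% and 53.5%, sit below regions of both hairpins without shCtrl (79.8%) and above regions of shCtrl alone (36.8%).

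The gene ends in question were almost all 5′ ends where a strand was tabled. For all 3 libraries this was 89 of 94 (94.7%, lower bound 88%) and for regions missing one hairpin 74 of 75 (98.7%, 92.8% to 100%). It was 97.2% in regions of both hairpins without shCtrl and 94.7% in regions of shCtrl alone, so the 5′ ends prevailed in the other classes free of no-antibody intervals as well. Regions of all 3 libraries with a no-antibody interval had 59.4% (19 of 32, 40.6% to 76.3%). The retained regions of all 3 libraries held 5 members at a 3′ end, named here as the whole of that group and so after their values were seen. Rnf41, a RING-type ubiquitin ligase gene, had 17 fragments in shUbe2t #1, 23 in shUbe2t #2 and 26 in shCtrl. Tmem267 had 34, 27 and 45, and the predicted gene Gm46796 had 15, 15 and 29, in the same order of libraries. Prrg2, which encodes a vitamin K-dependent membrane protein, had 18, 15 and 20, and 9530057J20Rik had 14, 16 and 18. Pileup was highest in shCtrl at each of the 5, and stayed so after scaling for depth. The counts are small. The counting intervals of the ratios to shCtrl include 1 at Rnf41 (0.361 to 1.36 and 0.515 to 1.72). At Gm46796 they do so as well (0.279 to 1.08 and 0.275 to 1.07). 9530057J20Rik lies in a dense stretch described further on.

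A tabled start lay within 1000 bp of 102 of 194 retained regions of all 3 libraries (52.6%, 45.3% to 59.8%) and of 78 of 184 missing one hairpin (42.4%, 35.2% to 49.9%). The share was 72.6% in regions of both hairpins without shCtrl (154 of 212, 66.1% to 78.5%), 28.9% in regions of shCtrl alone (119 of 412, 24.6% to 33.5%) and 7.23% in all-3 regions with a no-antibody interval (23 of 318). At the 102 regions most summits lay upstream of the start, taking the start nearest to the median summit. Its median position was −96 bp in shUbe2t #1, −99 bp in shUbe2t #2 and −122 bp in shCtrl, with intervals of the median of −134 to −56, −153 to −69 and −163 to −85 bp that overlapped. The summit was upstream in 75, 77 and 74 of the 102 regions, and within 300 bp upstream in 61, 62 and 60. For regions missing one hairpin the median over libraries was −64 bp (−93 to −40), with 58 of 78 upstream. Regions of shCtrl alone had a median of −40 bp (−71 to −6) and 72 of 119 upstream (60.5%, 51.1% to 69.3%), against 77 of 102 (75.5%, 66.0% to 83.5%) for retained regions of all 3 libraries by the median summit. The last 2 intervals overlap.

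**Figure D2:**
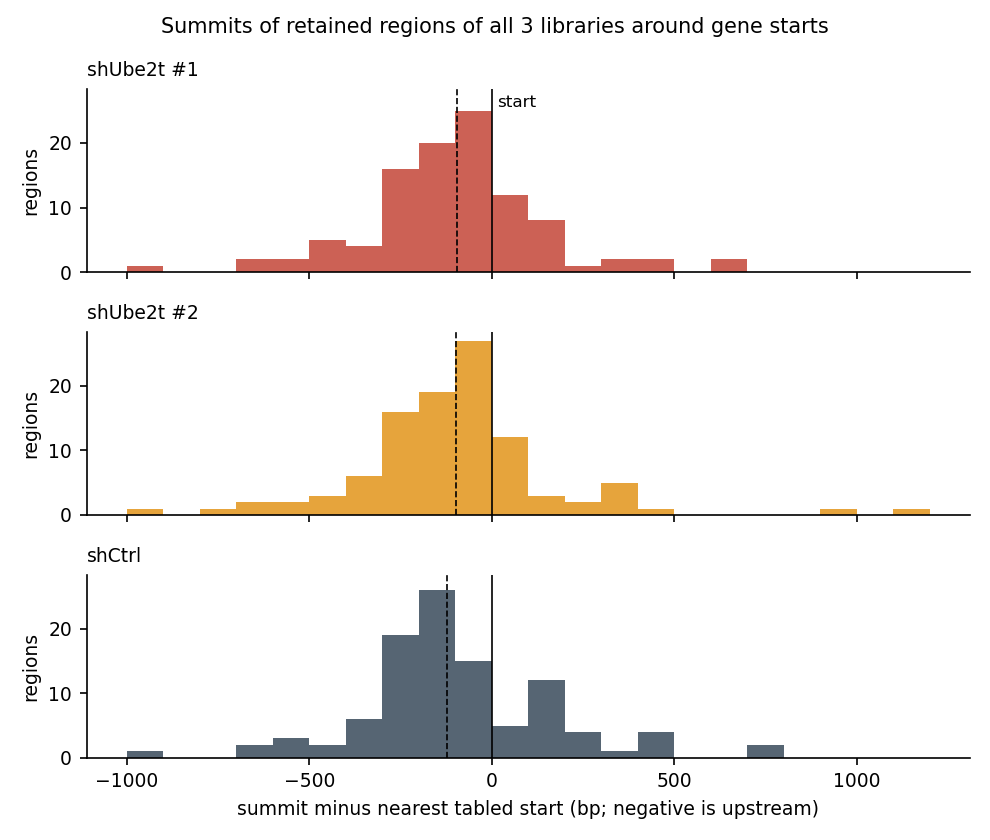
Distance from the nearest tabled start to the summit, in bp with negative values upstream, for the 102 retained regions of all 3 libraries with a start within 1000 bp, as counts of regions in 100 bp bins for shUbe2t #1, shUbe2t #2 and shCtrl. The solid line is the start and the dashed line the median, at −96, −99 and −122 bp.

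Single members show how far the summits were apart. At Ap2a1, which encodes an alpha subunit of the AP-2 clathrin adaptor, the summit was 205 bp upstream of the start in shUbe2t #1, 203 bp in shUbe2t #2 and 189 bp in shCtrl. At Ankrd50, whose ankyrin-repeat protein takes part in endosomal recycling, it lay 108, 89 and 102 bp upstream, inside the window printed for it. At Vcl, the vinculin gene, it lay 180, 245 and 334 bp upstream, a wider spread that ran past the window in shCtrl. Over all 210 regions the distance between summits had a median of 44.5 bp for shUbe2t #1 and shCtrl (interval 35 to 58), 48 bp for shUbe2t #2 and shCtrl (38 to 58) and 47.5 bp for the hairpins (36 to 65). The 3 intervals overlapped. Summits within 100 bp of each other were found in 157, 151 and 143 of the 210 regions. In regions missing one hairpin the median distance to the shCtrl summit was 68.5 bp for shUbe2t #1 and 53 bp for shUbe2t #2.

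Shared gene ends were common. Of the 125 gene-end members of all 3 libraries, 43 came within 1000 bp of the ends of at least 2 genes (34.4%, 26.1% to 43.4%), and 31 of 100 missing one hairpin did (31.0%, 22.1% to 41.0%), against 67 of 178 regions of both hairpins without shCtrl (37.6%) and 38 of 156 regions of shCtrl alone (24.4%). Tabled starts on both strands lay near 25 of 194 regions of all 3 libraries (12.9%, 8.52% to 18.4%), 22 of 184 missing one hairpin, 41 of 212 of both hairpins without shCtrl (19.3%) and 24 of 412 of shCtrl alone (5.83%, 3.77% to 8.54%). Sugct, a mitochondrial glutarate CoA-transferase gene, shares its region with Mplkip (chr13:17694854-17695167), with 15 fragments in shUbe2t #1, 16 in shUbe2t #2 and 15 in shCtrl. Pileups were nearly equal in the 3 libraries there. Hexdc, a hexosaminidase gene, and Ogfod3 (chr11:121204128-121204517) had 29, 20 and 19 fragments, where shUbe2t #1 stood furthest above shCtrl. Rab30, a Golgi-associated small GTPase gene (chr7:92741374-92741794), had 14, 16 and 19, and Isca2, an iron-sulphur cluster assembly gene next to the cholesterol carrier gene Npc2 (chr12:84772913-84773361), was called in shUbe2t #2 and shCtrl with 16 and 15 fragments.

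The promoter windows at retained regions were GC-rich and CpG-rich. Using the nearest tabled start, the 102 windows at regions of all 3 libraries had a median GC content of 65.7% (64.3% to 66.7%) and the 78 at regions missing one hairpin 64.8% (63.7% to 66.7%), against 52.7% over all windows of the table. The ratio of observed to expected CpG had a median of 0.794 (0.734 to 0.825) and 0.762 (0.702 to 0.813), against 0.384. Windows with at least 50% GC and a CpG ratio of at least 0.6, called CpG-rich here, made up 85 of 102 (83.3%, 74.7% to 90.0%) and 67 of 78 (85.9%, 76.2% to 92.7%), against 33.5% of all windows. CpG-rich windows were 86.4% (79.9% to 91.4%) in regions of both hairpins without shCtrl and 72.3% (63.3% to 80.1%) in regions of shCtrl alone, and both intervals overlap those of the retained regions. The table counts every annotated start, active or not, and activity in P19 cells was not measured here.

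**Figure D3:**
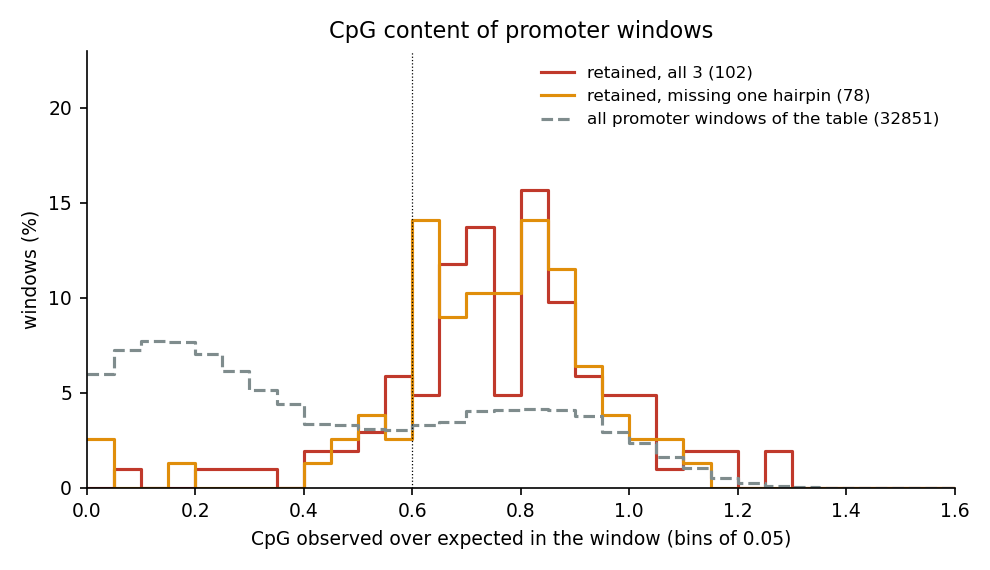
Observed over expected CpG in 300-base promoter windows, as percent of windows in bins of 0.05, for starts at retained regions of all 3 libraries (102 windows), at retained regions missing one hairpin (78) and for all 32851 windows. The dotted line marks 0.6. The retained sets have medians of 0.794 and 0.762, and all windows a median of 0.384.

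Of the sequence motifs searched on both strands, 2 were frequent. The GC box was found in 84 of 102 windows of all 3 libraries (82.4%, 73.6% to 89.2%) and 63 of 78 missing one hairpin (80.8%, 70.3% to 88.8%), beside 86.4% in regions of both hairpins without shCtrl, 72.3% in regions of shCtrl alone and 35.7% of all windows. The CCAAT box was in 56.9% (46.7% to 66.6%) and 55.1% (43.4% to 66.4%), beside 56.5%, 47.1% and 37.4%. A TATA box (TATAAA, or TTTATA) was in 3.92% (1.08% to 9.74%) and 2.56% (0.312% to 8.96%), beside 4.55%, 6.72% and 13.6%. The ETS core (CCGGAAG, or CTTCCGG) was in 8.82% and 14.1%, beside 8.86% of all windows. The NRF1 palindrome was in 0 of 102 and 1 of 78 windows, beside 0.971%, the CRE (TGACGTCA) in 0.980% and 3.85%, beside 1.79%, and the YY1 core (AAGATGGC, or GCCATCTT) in 1.96% and 3.85%, beside 2.75%. None of these 7 motifs contains another.

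A G-quadruplex pattern was also searched, since displaced G-rich strands can fold into such structures. The pattern was 4 runs of at least 3 G spaced by 1 to 7 bases on either strand. It was present in 43 of 102 windows at regions of all 3 libraries (42.2%, 32.4% to 52.3%) and 30 of 78 at regions missing one hairpin (38.5%, 27.7% to 50.2%). It was present in 29.9% of windows at regions of both hairpins without shCtrl (46 of 154, 22.8% to 37.8%), in 28.6% at regions of shCtrl alone (34 of 119, 20.7% to 37.6%) and in 18.6% of all windows. The intervals of the retained sets overlap those of both these classes. GC skew, the excess of G over C on the strand of the gene, had a median of 0.047 (−0.015 to 0.137) and 0.000 (−0.047 to 0.044) in the retained windows and 0.013 in all windows. These intervals of both retained sets, over the whole window, include 0. Over the 50 bases from the start alone the medians were 0.131 (0.023 to 0.2) and 0.091 (0.030 to 0.188), above 0. They were 0.104 in regions of both hairpins without shCtrl, 0.143 in regions of shCtrl alone and 0.067 in all windows. The value of all windows lay inside both retained intervals.

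Pileup was a little higher after knockdown than in shCtrl at the retained regions of all 3 libraries. The recovered summit pileup had a median of 18 fragments in shUbe2t #1 (9 to 92), 18 in shUbe2t #2 (9 to 73) and 16.5 in shCtrl (8 to 89). Divided by depth, the ratio to shCtrl had a median of 1.15 for shUbe2t #1 (interval 1.08 to 1.24, quartiles 0.918 and 1.40) and 1.16 for shUbe2t #2 (1.13 to 1.22, quartiles 0.951 and 1.45). Both ratios share the shCtrl library, so they are not independent of each other, and the rule that asks for a call in each library bears on them. At the 366 all-3 regions with a no-antibody interval the medians were 1.05 (1.02 to 1.08) and 0.987 (0.962 to 1.04). Between the hairpins, shUbe2t #2 over shUbe2t #1 had a median of 1.03 (0.949 to 1.07). A pileup at least 1.5-fold higher was seen at 43 of 210 regions in shUbe2t #1 and 42 of 210 in shUbe2t #2, where 9.14% and 9.38% of all regions called in both libraries of the pair passed that fold. A pileup at least 1.5-fold lower was seen at 5 and 6 regions, where 3.54% and 4.26% of all regions passed. These shares are of 678 and 704 regions, which hold the members themselves and also regions with a no-antibody interval. Of the 366 all-3 regions with a no-antibody interval, 14 and 16 were at least 1.5-fold higher and 14 and 22 at least 1.5-fold lower. Across the 210 regions the log2 pileups of shUbe2t #1 and shUbe2t #2 had a Pearson r of 0.737, and of 0.570 without the 10 strongest regions. Against shCtrl, r was 0.701 for shUbe2t #1 and 0.707 for shUbe2t #2, and 0.508 and 0.511 without the 10 strongest. The hairpins were thus only a little closer to each other than to shCtrl. The points share their sequence and the copy number of these cells, and the values are descriptions.

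**Figure D4:**
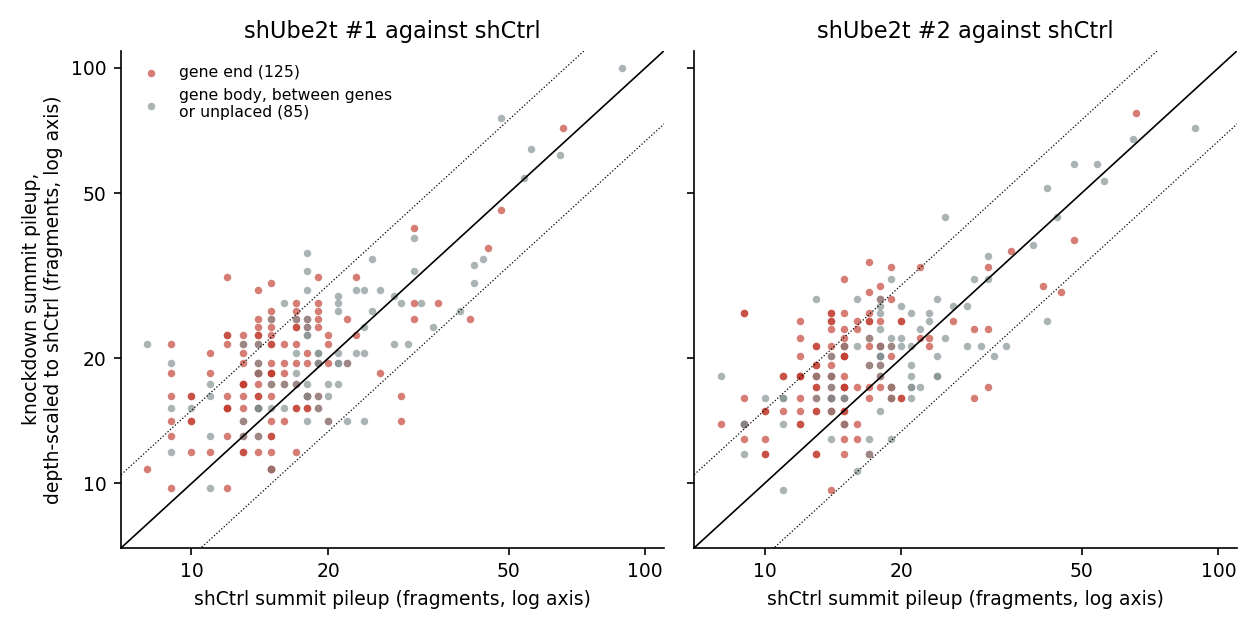
Summit pileup of shUbe2t #1 (left) and shUbe2t #2 (right), divided by depth relative to shCtrl, against summit pileup of shCtrl, in fragments on log axes, for the 210 retained regions of all 3 libraries. Red points lie at gene ends (125) and grey points elsewhere (85), the solid line is equality and the dotted lines are 1.5-fold. More gene-end points lie above the solid line than under it, 90 of 125 for shUbe2t #1 and 95 of 125 for shUbe2t #2.

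The ratios were higher at gene ends. There the median ratio was 1.24 for shUbe2t #1 (interval 1.15 to 1.32, n = 125 regions) and 1.25 for shUbe2t #2 (1.16 to 1.35), while at the other 85 regions it was 1.08 (0.994 to 1.14) and 1.07 (1.02 to 1.15). The gene-end intervals lay above the others for both hairpins in this setting. Regions between genes had medians of 0.981 (0.887 to 1.13) and 1.03 (0.954 to 1.13), and those in gene bodies 1.08 (1.02 to 1.33) and 1.13 (1.07 to 1.26). Gene-end members had lower pileups to begin with, a median of 17 fragments in shUbe2t #1, 17 in shUbe2t #2 and 15 in shCtrl, against 19, 19 and 19 at the other members. The regions were also cut at the median of the mean depth-scaled pileup of the 3 libraries, 18.6 fragments, a split chosen after the data were seen. The knockdown pileups enter both this cut and the ratios, so the split cannot set pileup level apart from the ratio. Among the weaker regions the median ratios were 1.16 and 1.21 at 73 gene-end regions, against 1.08 and 1.15 at 32 others. Among the stronger regions they were 1.33 (1.15 to 1.40) and 1.36 (1.13 to 1.496) at 52 gene-end regions, against 1.04 (0.935 to 1.22) and 1.07 (0.996 to 1.13) at 53 others. The median was higher at gene ends in both levels and for both hairpins, but within a level the intervals of gene-end and other regions overlapped. Whether pileup level accounts for the difference was not tested. The separation was narrow for shUbe2t #1, with a lower bound of 1.148 at gene ends and an upper bound of 1.143 elsewhere. For this hairpin the 2 overlapped when peaks up to 500 bp apart were merged (1.134 to 1.301 against 1.001 to 1.157). They also did without regions within 1000 bp of a no-antibody interval, and without the dense stretches described further on. For shUbe2t #2 they stayed apart in these settings. The separation was lost for both hairpins in other settings. With only intervals of a −log10 q of at least 5 the medians were 1.08 (0.990 to 1.23) and 1.07 (0.976 to 1.13) at 33 gene-end regions, against 1.03 (0.949 to 1.14) and 1.05 (0.926 to 1.09) at 48 others. With the deposited fold in place of pileup they were 1.08 (1.01 to 1.14) and 1.11 (1.05 to 1.15) at gene ends, against 0.997 (0.944 to 1.13) and 1.04 (0.994 to 1.13) elsewhere.

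Within the gene-end members, the 89 at 5′ ends had median ratios of 1.27 (1.16 to 1.36) and 1.26 (1.16 to 1.37). The kinds of start were set apart over the 102 regions of all 3 libraries with a tabled start within 1000 bp, gene-body members included. The 85 with a CpG-rich start had 1.28 (1.17 to 1.36) and 1.26 (1.15 to 1.37). The 17 with a start that was not CpG-rich had 1.08 (0.875 to 1.57) and 1.16 (1.04 to 1.43). Of the same 102, the 25 with starts on both strands had 1.193 (1.08 to 1.33) and 1.15 (0.976 to 1.35). The 77 with starts on 1 strand had 1.30 (1.15 to 1.39) and 1.30 (1.18 to 1.37). The intervals overlapped between CpG-rich and other starts, and between starts on both strands and on 1 strand. At regions missing one hairpin, the median ratio was 1.01 for shUbe2t #1 (0.949 to 1.08, n = 82) and 1.07 for shUbe2t #2 (1.07 to 1.15, n = 112).

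The members with the highest ratio in the less changed hairpin were chosen on these values, so they describe the upper edge of the set. Gatad2a, which encodes a subunit of the NuRD chromatin remodelling complex, had 20 fragments in shUbe2t #1, 24 in shUbe2t #2 and 9 in shCtrl at its 5′ end (chr8:69996289-69996779). The depth-scaled ratios were 2.41 (counting interval 1.05 to 6.01) and 2.85 (1.28 to 6.97). The shCtrl value lay near the lowest pileup called, 8 fragments. Garem1, a gene for a growth factor receptor adaptor, had 21, 23 and 12 fragments, Peak1, a gene for a cytoskeletal pseudokinase, had 25, 26 and 16, and the gene end shared by Izumo4 and Mob3a had 21, 19 and 12. Their ratios were 1.90 and 2.05, 1.69 and 1.74, and 1.90 and 1.69, with counting intervals that include 1.

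At the other edge, Gm46796 (chr3:6116006-6116280), a predicted long noncoding RNA, had 15 fragments in shUbe2t #1, 15 in shUbe2t #2 and 29 in shCtrl, with ratios of 0.561 (0.279 to 1.08) and 0.553 (0.275 to 1.07). The pileups were 22, 20 and 34 on an unplaced sequence (GL456387.1), 20, 20 and 30 in Gm3072, 23, 28 and 41 at Gm21190, and 13, 17 and 24 in 9530026P05Rik. The 4 genes here carry provisional names, and Gm21190 lies in a dense stretch described further on. The counting interval of each of these ratios includes 1.

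Among the gene-end members with the highest mean fold rank, both small RNA and protein-coding genes appeared. The 5S ribosomal RNA gene n-R5s100 lay near a region (chr8:123537721-123538038) with 13 fragments in shUbe2t #1, 15 in shUbe2t #2 and 20 in shCtrl. At the gene end shared by Ap2a1 and Tsks (chr7:44929526-44930064) there were 20, 27 and 17 fragments. Ankrd50 (chr3:38484763-38485146) had 22, 20 and 15 fragments. Usp22, the deubiquitinase of the SAGA coactivator complex, had 24, 26 and 19 at chr11:61174965-61175535. The first of these was highest in shCtrl and the other 3 were lowest there. Vcl (chr14:20928963-20929346) had 21, 14 and 13, and Tsga10, a testis-expressed gene (chr1:37864575-37865448), had 17, 24 and 15, each with 1 hairpin well above the other. Rab1a, a GTPase gene of transport from the endoplasmic reticulum to the Golgi (chr11:20200873-20201471), had 21, 20 and 23 fragments and so nearly the same level in all 3.

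**Figure D5:**
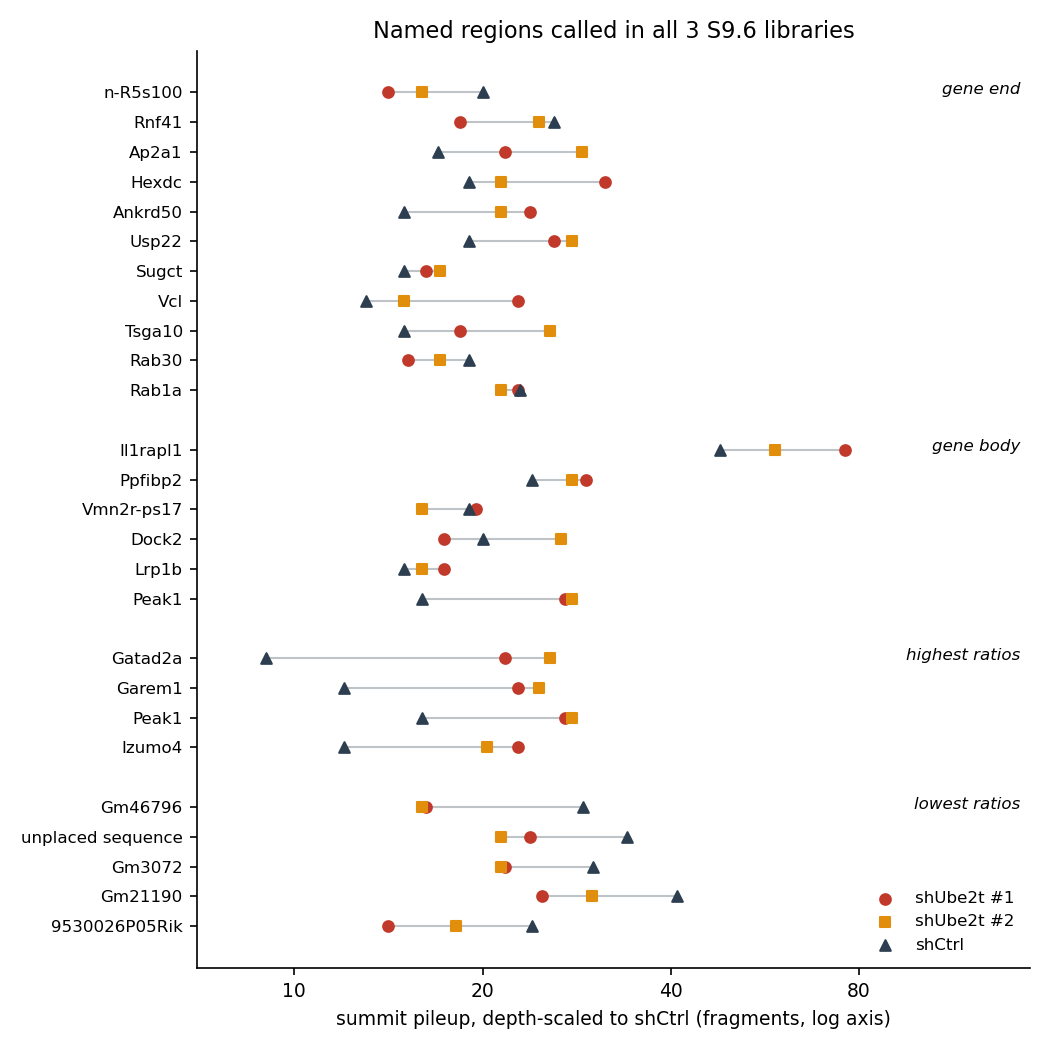
Depth-scaled summit pileup in fragments (log axis) in shUbe2t #1, shUbe2t #2 and shCtrl for 11 of the 12 gene-end and all 6 gene-body members of all 3 libraries with the highest mean fold rank, and for 4 of the 5 members with the highest ratios and the 5 with the lowest, which were chosen on these values. Peak1 belongs to 2 groups and is drawn in both. Grey lines join the lowest and highest library. Il1rapl1 stands apart from the rest, with unscaled pileups of 70, 55 and 48.

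In gene bodies, Il1rapl1, a long X-linked gene for a synaptic adhesion protein, had the member with the highest mean fold rank (chrX:87238257-87238521), with 70 fragments in shUbe2t #1, 55 in shUbe2t #2 and 48 in shCtrl. Its ratios were 1.58 (1.08 to 2.33) and 1.22 (0.816 to 1.84), and its summits lay at 87238384, 87238386 and 87238388, within a few bp. Ppfibp2, a liprin gene, had 27, 26 and 24 fragments, the pseudogene Vmn2r-ps17 had 18, 15 and 19, and Dock2, a Rac exchange factor gene, had 16, 25 and 20. Lrp1b, a very long lipoprotein receptor gene, had 16, 15 and 15. Peak1, given among the highest ratios, was the sixth and stood above shCtrl with both hairpins. The 4 members between genes with the highest mean fold rank had 30, 29 and 31 fragments at chr9:81225000-81225300, 32, 41 and 25 at chr1:122357078-122357333, 27, 25 and 26 at chr18:14103178-14103508, and 36, 33 and 31 at chr7:130834323-130834649. The second of them varied most, and shUbe2t #2 was highest there.

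Small noncoding RNA genes were few. A cluster of tRNA genes and Mir6546 (chr1:171064259-171064846, within 1000 bp of n-TGtcc1, n-TEctc5 and n-TDgtc3) had 23 fragments in shUbe2t #1, 16 in shUbe2t #2 and 31 in shCtrl. The microRNA gene Mir7655 (chr2:18056266-18056998) had 13, 15 and 9, and the small nuclear RNA gene Gm22068 (chr11:87427123-87427906) had 18, 23 and 14. The 3 sites did not move one way. The region near the 5S gene n-R5s100, given above, was lower with both hairpins (13, 15 and 20 fragments). So was the region at Gm9919, a miscellaneous RNA gene (13, 22 and 29). All of these were picked by gene class after their values were seen. Over all members at a gene end or in a gene body, 275 were assigned to a protein-coding gene, 14 to a long noncoding RNA, 16 to a pseudogene and 4 to a transcribed pseudogene. A microRNA, a small nucleolar RNA and a miscellaneous RNA had 2 each. A ribosomal RNA, a small nuclear RNA and a V-segment pseudogene had 1 each.

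Regions missing one hairpin had lower median pileups than those of all 3 libraries. The calls divided these 2 sets and a call asks for a high enough pileup, so the difference is not a result apart from the rule. In shCtrl and shUbe2t #1 regions the median pileup was 13 fragments in shUbe2t #1 and 14 in shCtrl, and in shCtrl and shUbe2t #2 regions it was 15 in shUbe2t #2 and 14 in shCtrl. For each, the pileup that the missing library would have needed for its weakest accepted p was computed from the local background of the other 2 libraries. The mean pileup of those 2 libraries, scaled to the depth of the missing one, was 1.32 times that need for a missing shUbe2t #2 (1.24 to 1.37) and 1.35 times for a missing shUbe2t #1 (1.30 to 1.43), and reached 1.5 times in 18 of 82 regions (22.0%) and 29 of 112 (25.9%). At regions of all 3 libraries the pileup of a hairpin was, against its own background, 1.54 times the need in shUbe2t #1 and 1.58 times in shUbe2t #2, and reached 1.5 times in 57.1% and 61.0%. The libraries averaged at regions missing one hairpin were each required to carry a call, as was each hairpin at regions of all 3 libraries. Values above 1 therefore follow largely from the rule, and they do not show that the missing library could have been called. The values of single hairpins and the means of the other 2 libraries are also unlike measures. An interval of the missing hairpin lay within 1000 bp, without overlap, in 6 of the 82 and 4 of the 112. Pileup in a library without a call is not in a peak list, so a missing call does not give the level there.

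Named members that missed shUbe2t #2 were led at gene ends by Pbx3, a homeodomain factor gene, with 20 fragments in shUbe2t #1 and 17 in shCtrl. Abcf2, of the ABC ATPase family, had 14 and 18, and Homez, a homeobox gene, had 13 and 12. The gene end shared by Pdcd10, a cerebral cavernous malformation gene, and Serpini1, the neuroserpin gene, had 14 in shUbe2t #1 and 21 in shCtrl, the widest gap of the 6, and an shUbe2t #2 interval lay 13 bp from the region. Lcorl had 13 and 12, and Pafah1b1, which encodes the dynein regulator LIS1, had 14 and 14. In gene bodies, Frmd4a had 15 and 16, and Tspan5, a tetraspanin gene, 21 and 16. Named members that missed shUbe2t #1 were led by Txnrd3, a thioredoxin reductase gene, with 17 fragments in shUbe2t #2 and 19 in shCtrl. Besides Isca2 these were BC005537 (16 and 13), Sptssa, a subunit gene of serine palmitoyltransferase (15 and 14), the pseudogene Ighv5-3 (16 and 14) and Khdrbs2, an RNA-binding protein gene (14 and 11). In gene bodies, Ptprg, a receptor tyrosine phosphatase gene, had 23 and 17, Atg4c, an autophagy protease gene, 14 and 15, and Map3k20, a stress kinase gene, 15 and 15. Hairpin and control were each required to carry a call at these sites, and the sign of their difference varied from site to site.

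Gene groups fixed as lists were looked up for retained regions. The lists were chosen with earlier results of these data known, so their shares are descriptions. Over the gene table as a whole, 0.801% of 49939 genes held a retained region of either kind in their body or within 1000 bp, 0.439% one of all 3 libraries, and 1.47% of protein-coding genes one of either kind. Of 30 highly transcribed housekeeping genes, 3 held a region of all 3 libraries, and Eno1 and Ncl one that missed a hairpin. Together 5 of the 30 held a retained region (16.7%). Eef1a1, translation elongation factor 1 alpha, had 12 fragments in shUbe2t #1, 19 in shUbe2t #2 and 15 in shCtrl. Hspa8, the constitutive HSP70 chaperone gene, had 13, 11 and 13, and the gene end shared by Hnrnpa2b1 and Cbx3 had 10, 11 and 15. Eno1, the enolase gene, had 10 in shUbe2t #1 and 12 in shCtrl, and Ncl, the nucleolin gene, had 12 in shUbe2t #2 and 17 in shCtrl. At none of the 3 regions of all libraries did both hairpins stand above shCtrl. None of the 27 ribosomal protein genes held a retained region. At a share of 1.47%, a list this short can hold none without differing from protein-coding genes at large.

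Of 41 ubiquitin conjugation, ligase and deubiquitinase genes, Rnf41 and Usp22 held regions of all 3 libraries (4.88%). Rnf41 had a second region at its other end, shared with Nabp2, a single-strand DNA binding protein gene (chr10:128411386-128411766), with 23 fragments in shUbe2t #1, 15 in shUbe2t #2 and 17 in shCtrl. Of 29 Fanconi anaemia and crosslink repair genes, only Slx4, the scaffold of structure-specific nucleases, held a retained region (3.45%). It was called in shUbe2t #2 with 13 fragments and in shCtrl with 12. Of 35 transcription elongation and Integrator genes, only Ints9, a subunit of the Integrator complex, held one, at a region shared with Hmbox1 (chr14:64949619-64950018) with 9 fragments in shUbe2t #1, 24 in shUbe2t #2 and 9 in shCtrl. The ratio was 1.08 (0.381 to 3.08) for shUbe2t #1 and 2.85 (1.28 to 6.97) for shUbe2t #2. Of 34 splicing and RNA-binding protein genes, 1 held a region of all 3 libraries, Hnrnpa2b1. The 28 matched genes of R-loop processing factors held none. With lists this short, counts of 0 or 1 do not set a group apart from the 1.47% of protein-coding genes.

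Of 26 matched very long and fragile-site genes, Il1rapl1 and Lrp1b held regions of all 3 libraries, and Dlg2 and Lsamp regions missing one hairpin. Together 4 of the 26 held a retained region (15.4%). Dlg2, a synaptic scaffold gene, was called near its end shared with Tmem126b, with 12 fragments in shUbe2t #1 and 11 in shCtrl. Lsamp, a neuronal adhesion gene, had 10 in shUbe2t #2 and 11 in shCtrl. As long genes offer more sequence, no comparison of this share with other genes was made. None of 8 pluripotency genes, 5 neural genes and 5 mesoderm or endoderm genes held a retained region, and the lists of peaks measure no expression.

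Members sat unevenly along the genome. In 4 stretches, defined after the data were seen as runs of at least 6 members with gaps of at most 500 kb, 45 members lay together. These were 15 at chr8:19713339-20822830, 14 at chr5:14906340-15714251 among Speer4 genes, 10 at chr4:145526056-147795082 among zinc finger genes and Vmn2r pseudogenes, and 6 at chr14:42724233-43538695. Only 5 of the 45 lay at gene ends (11.1%, 3.71% to 24.1%), against 220 of the other 345 placed members (63.8%, 58.5% to 68.8%). The local background in shCtrl had a median of 4.76 fragments at the 45 and 2.16 at the others. The same stretches held 17, 40, 6 and 5 no-antibody intervals, in the order given. These are stretches of multicopy genes, where reads of near-identical copies could be split or piled up, and how multimapping reads were treated is not given in the sources used here. The part of this in the calls was not tested.

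The limits of the set rest on thin margins for some members. The 3 members nearest to a no-antibody interval lay 101 bp (chr16:13759586-13760041), 162 bp (within Smo, the Hedgehog signal transducer gene, chr6:29748802-29749031) and 219 bp (on unplaced JH584304.1) from one. The first had 10 fragments in shUbe2t #2 and 11 in shCtrl, and the second 24 and 27. Just outside, the regions left out with the smallest overlap shared 46 bp (within 2610005L07Rik), 172 bp and 176 bp with a no-antibody interval. Their pileups were 18, 14 and 16 in shUbe2t #1, shUbe2t #2 and shCtrl for the first, 11 in shUbe2t #2 and 10 in shCtrl for the second, and 17 in shUbe2t #1 and 16 in shCtrl for the third. The no-antibody library was shallower, at 58.7% of shCtrl, and whether retained regions lie where it lacked the depth for a call was not tested. The lowest deposited −log10 q of a member was 1.32, found among others at the gene end shared by Cnst and Tfb2m and at Lpxn, the leupaxin gene.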

How the data were processed

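CUT&Tag libraries of P19 cells were made with S9.6 in 3 cases and without primary antibody in 1. Peak names of the no-antibody library begin with IgG in its file, so whether a non-specific antibody was used is not settled. Tools named per the submitters' processing notes are MACS2 2.1.2, Trimmomatic and Bowtie, the last with 0.7.12 as its version, and the genome is mm10. The calling threshold, handling of duplicates and multimapping reads, and any control used in calling were unstated (not given in the sources used here). The authors deposited 1 peak list per library, called separately. Its fold enrichment over local background is a ratio, its p and q are on a −log10 scale, the deposited score was not used, and the summit offset within each interval gave positions. The lowest deposited −log10 q was 1.32, 1.32, 1.31 and 1.31 in shUbe2t #1, shUbe2t #2, shCtrl and no antibody.

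Fold was taken as the ratio of pileup and background after adding 1 to each, and p as a Poisson tail, and both were solved together for pileup and background, which was tested on simulated data. The lowest background of a library stood in for its depth. PCR duplicates, if kept, would raise pileups, and no interval covers this. Intervals with several summits took the values of the summit with the strongest p. Regions were merged at 0 bp, overlap counted from 1 bp, and locations and promoter windows came from RefSeq tables of GRCm38.p6 (49939 placed genes, and 32851 windows of 27025 genes). The gene table has no strand or exons, so strand came from the promoter table and exons were not told apart. Promoter windows of chromosome 18, where 12 members lay, were not used here. Shares carry exact (Clopper-Pearson) 95% intervals, medians the 95% interval from order statistics, and ratios of single members a conditional binomial interval. Named members were the 12 gene-end, 6 gene-body and 4 intergenic regions that ranked highest by fold percentile, averaged over the 3 S9.6 libraries, 6 gene-end and 3 gene-body regions for each pair of shCtrl and 1 hairpin, the 5 highest and 5 lowest by pileup ratio, members of the lists, those nearest the limits of the rule and up to 6 at shared gene ends. Predicted genes came last, and some members that the rule picks are not reported here. The members, the lists and the 261 names in 11 lists (259 matched) were chosen with earlier results of these data known. Python 3.11.15, numpy 2.4.6, scipy 1.17.1, pandas 2.3.3 and matplotlib 3.10.9 were used.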

Additional observations from a re-analysis of the deposited data

How the results depend on the processing

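The library count limits every result: there was 1 library per condition, so spread between cultures is unknown. No paired analysis was possible because each condition had 1 library and the labels give no replicate numbers. Of 67 recomputed values, 50 stayed within 1.5 times the count or inside the interval reported, 16 moved further and 1 turned direction. With a −log10 q of at least 5, 160 regions were retained, 81 of all 3 libraries and 79 missing one hairpin, the gene-end shares were 42.9% and 39.5%, the gene-end ratios 1.08 for shUbe2t #1 and 1.07 for shUbe2t #2, and the median distance between knockdown and shCtrl summits (the mean over both hairpins per region) 22.5 bp, against 56 bp with all intervals. With no-antibody regions kept, 806 were retained, 576 of all 3. Gene ends within 2000 bp gave 72.9% for all 3 libraries, and leaving out predicted genes 44.9% for those missing one hairpin, both by construction of the setting. Without scaling for depth the ratio was 1.14 for shUbe2t #1 at gene ends and 1.00 for shUbe2t #2 elsewhere. With the deposited fold in place of pileup the gene-end ratios were 1.08 and 1.11, and the ratio for shUbe2t #1 elsewhere was 0.997, under 1. Apart from settings named as by construction, the cause was not tested. Leaving out the dense stretches, an alternative added after the data were seen, gave 359 regions and gene-end shares of 68.2% and 59.0%.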

Other observations

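On unplaced sequence 14 members were retained, 7 of them of all 3 libraries, and 5 of the 14 lay on JH584304.1. The member there of all 3 libraries had 92 fragments in shUbe2t #1, 67 in shUbe2t #2 and 89 in shCtrl, over a local background of 46.9 in shCtrl. The other 4 each missed a hairpin. They had 51 fragments in shUbe2t #1 and 61 in shCtrl, 54 in shUbe2t #2 and 68 in shCtrl, 80 in shUbe2t #1 and 103 in shCtrl, and 83 in shUbe2t #1 and 87 in shCtrl, over shCtrl backgrounds of 29.5, 35.4, 53.9 and 51.7. Their pileups were far above the median of the set, while the authors' fold put all 5 at or under the 1.11 percentile of the shCtrl list.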
